A study of Mus musculus with 6 samples.

Results

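The subject is a list of 32 immediate early and heat shock genes, read as indicators of activation and of handling in natural killer (NK) cells sorted from mouse spleen. A listed gene was kept where a probe set carried its symbol alone in the platform annotation, and the brightest such probe set, by its mean over 6 arrays, then stood for it. That gave 31 genes of the 19938 measured, 26 of them immediate early genes and 5 heat shock genes. Hspa1b was left out, because its only probe set is also annotated to Hspa1a. The 3 knockout arrays carried the genotype 15a/16-1FKO and the 3 control arrays the genotype Ctrl, all on the C57Bl/6 strain, from mice between 8 and 12 weeks old. In both genotypes the sort took YFP+, CD27+, NK1.1+ and CD3- cells, directly after the spleens were harvested. What drives the deletion and the YFP was not given in the sources used here. The design text describes the arrays of a genotype as technical replicates, but sex-linked transcripts differed between arrays of one genotype, which goes against arrays of one shared RNA. What kind of replicate they are is therefore not settled, and SDs, intervals and p-values cover only how these arrays vary. The study asked what CD27+ NK cells do without microRNA-15a and microRNA-16-1. Both mature microRNAs lie on the minus strand of mouse chromosome 14 (GRCm38.p6, chr14:61632075-61632096 and chr14:61631936-61631957, from RefSeq). They share the seed, the pairing sequence at bases 2 to 8, shown in capitals.
mmu-miR-15a-5p: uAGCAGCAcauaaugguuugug
mmu-miR-16-5p: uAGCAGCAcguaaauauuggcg

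Immediate early genes are transcribed within minutes of a stimulus, without new protein synthesis, and their messages decay fast. In NK cells and other lymphocytes they respond to receptor ligation, cytokines and calcium, and also to tissue dissociation and cell sorting. The products include the AP-1 subunits of the FOS and JUN families, the EGR, KLF and NR4A transcription factors, and feedback proteins that end the response, such as the DUSP phosphatases and the ZFP36 RNA decay factor. Heat shock genes encode chaperones and their cofactors and are induced through the factor HSF1 when proteins misfold.

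The annotated start sites of 26 of the 32 listed genes had a promoter window in the RefSeq table on GRCm38.p6, and the 250 bases before each start were searched on both strands. A cyclic AMP response element, TGACGTCA, was present in 2 of these 26 genes, Btg2 and Dusp1, and in 1.55% of 32851 windows of the same length. Its core TGACGT, which lies inside the full element, was found in 8 of the 26 genes and in 6.47% of windows. The core of the heat shock element, GAANNTTC, occurred in 4 of them, Hspa1a, Hspa1b, Jun and Fosl2, and in 6.69% of windows, and the CArG box bound by serum response factor in 3, Dusp5, Egr2 and Zfp36, and in 1.47% of windows. A gene with several start sites, such as Egr2, counted where any of its windows matched, whereas the percentages count single windows. Such a match is a run of letters and no evidence of a bound factor. Bases outside these windows were not searched, so a gene without a match may have a site elsewhere. The 6 listed genes without a window, Egr1 among them, were not searched at all. Windows of 5 genes are shown, each 5′ to 3′. Fos and Dusp1, which varied widely between arrays, have the TGACGT core in capitals (1 match in Fos, chr12:85473640-85473889, plus strand; 3 in Dusp1, of which 2 overlap as TGACGTCA, chr17:26508473-26508722, minus strand). Dusp5, which varied very little, has 2 CArG boxes and 1 match of the same core in capitals, the core on the opposite strand as ACGTCA (chr19:53528895-53529144, plus strand). Nr4a3, another steady gene, had 3 matches of the core, so that the core was present in genes of wide and of narrow spread. Fosb and Jun, which also varied widely, had no match of it. Hspa1a and Hspa1b have the heat shock element core in capitals (chr17:34972157-34972406 and chr17:34959239-34959488, minus strand). These last windows were identical at 247 of 250 positions.
Fos: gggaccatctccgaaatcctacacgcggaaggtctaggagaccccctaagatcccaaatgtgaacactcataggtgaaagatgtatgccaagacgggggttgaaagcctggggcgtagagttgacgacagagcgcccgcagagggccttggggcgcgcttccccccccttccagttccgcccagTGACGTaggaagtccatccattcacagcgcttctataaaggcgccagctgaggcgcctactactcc
Dusp1: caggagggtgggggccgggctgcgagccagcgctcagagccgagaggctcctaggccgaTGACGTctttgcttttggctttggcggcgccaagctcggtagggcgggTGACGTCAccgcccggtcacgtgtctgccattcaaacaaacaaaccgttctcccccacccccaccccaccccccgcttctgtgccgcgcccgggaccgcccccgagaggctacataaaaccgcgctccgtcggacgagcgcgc
Dusp5: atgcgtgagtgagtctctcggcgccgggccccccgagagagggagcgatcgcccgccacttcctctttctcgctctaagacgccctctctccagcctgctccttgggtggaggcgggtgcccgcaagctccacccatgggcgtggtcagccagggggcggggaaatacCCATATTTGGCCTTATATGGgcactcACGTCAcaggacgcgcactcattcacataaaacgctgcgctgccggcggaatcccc
Hspa1a: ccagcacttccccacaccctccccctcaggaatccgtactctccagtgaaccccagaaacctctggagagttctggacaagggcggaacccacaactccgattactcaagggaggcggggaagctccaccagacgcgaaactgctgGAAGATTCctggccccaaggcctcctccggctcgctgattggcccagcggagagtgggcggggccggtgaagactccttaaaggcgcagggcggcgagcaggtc
Hspa1b: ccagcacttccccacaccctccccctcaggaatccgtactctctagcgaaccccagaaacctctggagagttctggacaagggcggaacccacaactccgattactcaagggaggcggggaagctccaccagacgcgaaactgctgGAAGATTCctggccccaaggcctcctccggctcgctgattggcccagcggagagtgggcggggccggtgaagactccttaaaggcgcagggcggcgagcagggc

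Values are log2 expression values as the authors deposited them, so that a difference of 1 is a factor of 2. Array medians over 35556 probe sets lay between 4.23 and 4.33, and array precision was limited by the number of arrays. The probe set of Mir15a, a check of the labels, was at 4.37, 3.53 and 3.43 in the knockout arrays and at 7.14, 6.02 and 6.69 in the control arrays, with no overlap. All 12 NK markers examined lay above 4.13, the level under which 95% of 1027 olfactory receptor genes lay and which served to describe background. The sex-linked transcript Xist ranged from 7.56 to 8.84 in knockout arrays and was at 9.65, 3.89 and 8.86 in control arrays 1 to 3. The Y-linked Eif2s3y ranged from 6.18 to 7.88 in knockout arrays and was at 2.33, 7.95 and 6.29 in the control. Both transcripts thus lay above the background level on every knockout array and on control array 3. Control array 1 had Eif2s3y under that level, and control array 2 had Xist under it. Whether any array held RNA of both sexes was not tested. Across all genes 4 passed an adjusted p of 0.05 by limma, 3 higher and 1 lower in the knockout.

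No immediate early or heat shock gene passed the threshold between the genotypes. By limma, adjusted over 19938 genes, 0 of 31 were called, where 0.0201% of all genes were called, and 0 of 31 had an unadjusted p under 0.05, where 3.47% of all genes did. The smallest unadjusted p was 0.0665, for Nr4a3, and each of the 31 adjusted p-values was 0.999. Of the 31 differences, all given as knockout minus control, 11 were positive and 20 negative, with a median of -0.05 and a range from -0.54 (Fosb) to 0.45 (Ier3). Both ends moved with single arrays. With each array left out in turn, Fosb ranged from -0.90 (without control array 3) to -0.17 (without control array 2), and Ier3 from 0.25 (without knockout array 3) to 0.77 (without control array 1). The median over all genes was -0.01. One of 31 genes, Nr4a3, had arrays that did not overlap between genotypes, and it was lower in the knockout. Of all genes 8.33% did not overlap, 3.68% being higher and 4.65% lower in the knockout. In sorted bulk RNA, fewer responding cells and less RNA per cell cannot be told apart.

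**Figure D1:**
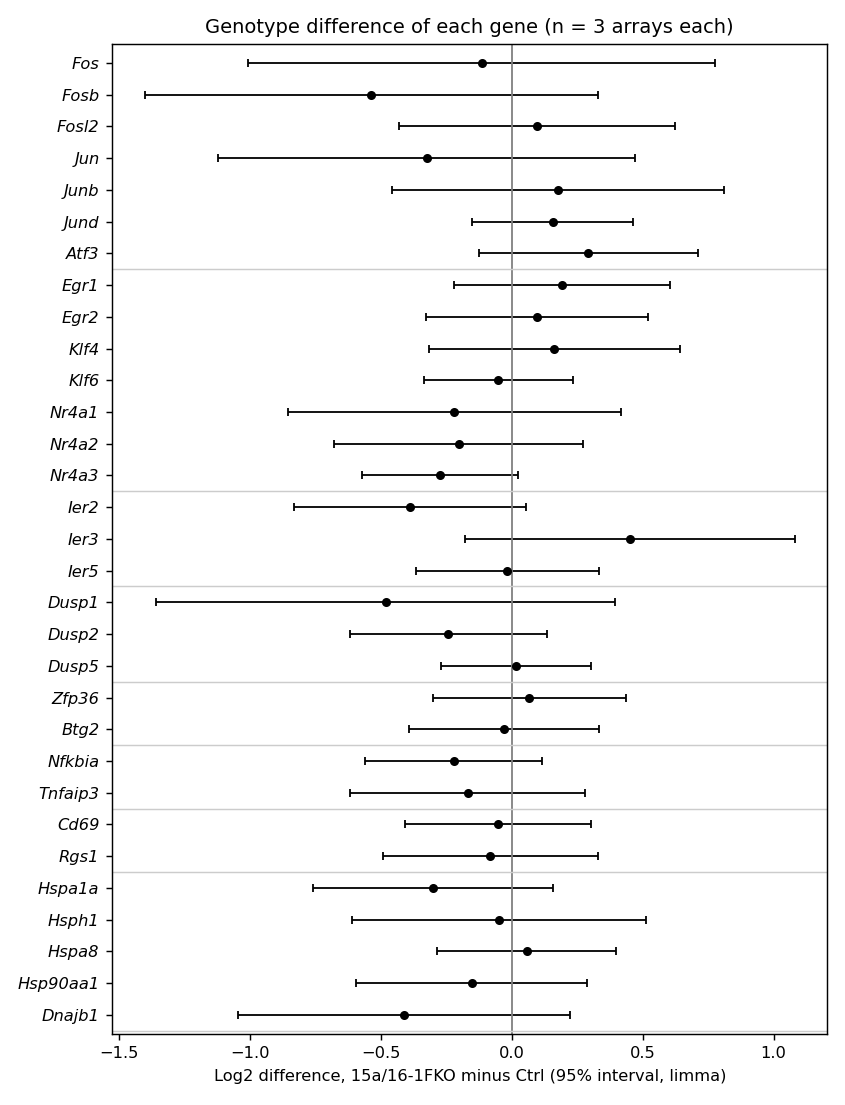
Log2 difference between 15a/16-1FKO and Ctrl for 31 genes, as points with 95% intervals from limma (n = 3 arrays each). Every interval includes 0, and the widest belong to Fos, Fosb, Dusp1 and Jun.

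How large a difference these arrays left possible varied from gene to gene. The 95% interval lay within 1 log2 unit of 0, a factor of 2 in either direction, for 25 of 31 genes and within 0.5 for 9. The 6 genes with wider intervals were Fos, Fosb, Jun, Ier3, Dusp1 and Dnajb1. Among all 19938 genes, 19485 had an interval within 1 log2 unit.

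**Figure D2:**
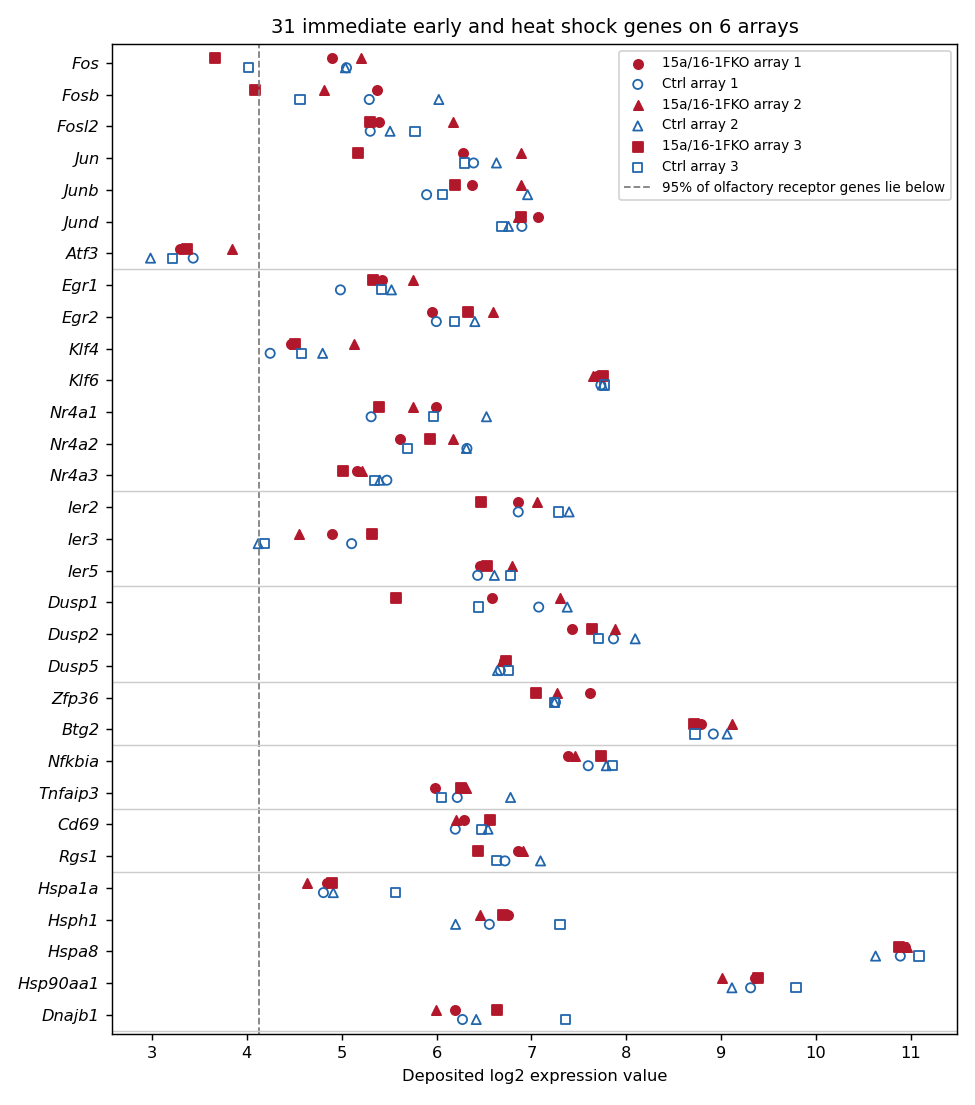
Deposited log2 value of 31 genes on each of 6 arrays. Filled red symbols are 15a/16-1FKO and open blue symbols Ctrl, and the symbol shape gives the array number. The dashed line is the level under which 95% of olfactory receptor genes lay. Red and blue overlap in every row but Nr4a3, while Fos, Fosb, Jun and Dusp1 spread over more than 1 log2 unit within the knockout.

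The AP-1 subunits showed no genotype difference past the threshold and held the widest spread between arrays. Fos, whose product pairs with JUN proteins, was at 4.90, 5.21 and 3.66 in knockout arrays 1 to 3 and at 5.05, 5.04 and 4.02 in control arrays 1 to 3. The third array of each genotype was low, under the background level of 4.13, and the genotypes overlapped. The difference was -0.11 (SE 0.40, 95% interval -1.01 to 0.78). Fosb, a close relative of Fos, was at 5.37, 4.81 and 4.08 in the knockout and at 5.29, 6.02 and 4.56 in the control. Again the arrays numbered 3 were the lowest, that of the knockout just under the background level. The difference was -0.54 (SE 0.39, interval -1.40 to 0.33). Jun, the main dimer partner of FOS, was at 6.28, 6.89 and 5.17 in the knockout and at 6.39, 6.63 and 6.29 in the control. The difference of -0.32 (SE 0.36) rested on knockout array 3. Without that array it was 0.15 for Jun and 0.35 for Fos.

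Junb, a JUN family member that can restrain AP-1 activity, was at 6.37, 6.88 and 6.19 in the knockout and at 5.89, 6.96 and 6.06 in the control. Here the second array was the highest in each genotype, and the difference was 0.18 (SE 0.28). Fosl2 was highest in knockout array 2, at 6.17, with the other 5 arrays between 5.30 and 5.77, and differed by 0.10 (SE 0.24). Jund, a JUN protein made constitutively, ranged only from 6.69 to 7.06, with a difference of 0.16 (SE 0.14, interval -0.15 to 0.46). Atf3, a stress-induced ATF family repressor, lay under the olfactory receptor level on all 6 arrays, between 2.98 and 3.84, so that its difference of 0.29 (SE 0.19) was measured in the background range.

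Among the EGR, KLF and NR4A factors, 3 of 7 differences were positive and 4 negative. Egr1, a zinc finger factor induced through ERK signalling, was at 5.42, 5.76 and 5.33 in the knockout and at 4.99, 5.52 and 5.42 in the control, with a difference of 0.19 (SE 0.18, interval -0.22 to 0.61). Egr2, its relative with a part in lymphocyte anergy, was at 5.95, 6.59 and 6.33 against 6.00, 6.40 and 6.18, a difference of 0.10 (SE 0.19). Klf4, a factor linked to quiescence, was at 4.47, 5.13 and 4.51 against 4.25, 4.80 and 4.57, a difference of 0.16 (SE 0.21). These genes shared an order, with the second array highest in each genotype. Klf6 stayed between 7.65 and 7.77 on all 6 arrays and differed by -0.05 (interval -0.34 to 0.23).

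The NR4A genes encode orphan nuclear receptors that are induced by antigen receptor signalling. All 3 differences were negative. Nr4a3 was at 5.16, 5.21 and 5.02 in the knockout and at 5.48, 5.40 and 5.34 in the control. Its lowest control array lay above its highest knockout array, and the difference was -0.28 (SE 0.13, interval -0.57 to 0.02, adjusted p = 0.999 by limma). A two-sided exact test over all permutations of the 6 arrays gave p = 0.1, and no smaller p is possible with 3 against 3. Nr4a1, often used as a reporter of receptor signalling, was at 6.00, 5.75 and 5.39 against 5.31, 6.53 and 5.96, and its -0.22 (SE 0.28) was 0.08 without control array 2. Nr4a2 was at 5.61, 6.17 and 5.93 against 6.32, 6.31 and 5.69, a difference of -0.20 (SE 0.21).

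The IER genes, named for their immediate early response, went different ways. Ier2, a nuclear protein, was at 6.86, 7.06 and 6.47 in the knockout and at 6.86, 7.40 and 7.28 in the control. Knockout array 3 was the lowest of the 6, and the difference was -0.39 (SE 0.20, interval -0.83 to 0.06). Ier3, which affects survival and ERK signalling, had the largest positive difference in the list, 0.45 (SE 0.28, interval -0.18 to 1.08). It was at 4.89, 4.55 and 5.32 against 5.10, 4.12 and 4.18, and 1 of the control arrays lay just under the background level. It was lowest in the second array of each genotype. Ier5, which promotes HSF1 activity, ranged from 6.43 to 6.79 and differed by -0.02 (SE 0.16).

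The DUSP genes encode phosphatases that switch off MAP kinases, and they ranged from one of the most to one of the least variable genes in the list. Dusp1, which acts mainly on p38 and JNK, was at 6.58, 7.30 and 5.57 in the knockout and at 7.08, 7.38 and 6.44 in the control. Both arrays numbered 3 were low and both numbered 2 high, as for Jun, and the difference was -0.48 (SE 0.39, interval -1.36 to 0.40). It was -0.024 without knockout array 3 and -0.89 without knockout array 2. Dusp2, a nuclear phosphatase of activated lymphocytes, was at 7.42, 7.88 and 7.63 against 7.86, 8.09 and 7.70, a difference of -0.24 (SE 0.17). Dusp5, an ERK phosphatase, stayed between 6.64 and 6.76, with a difference of 0.02 (interval -0.27 to 0.30).

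Feedback regulators of message decay and of NF-kB had differences between -0.22 and 0.07, none past the threshold. Zfp36, which directs AU-rich messages to decay, was at 7.62, 7.27 and 7.05 in the knockout and between 7.24 and 7.25 on the 3 control arrays, a difference of 0.07 (SE 0.16). Btg2, an anti-proliferative gene that promotes deadenylation, ranged from 8.71 to 9.12 and differed by -0.03 (SE 0.16). Nfkbia, the inhibitor that retains NF-kB in the cytoplasm, was at 7.39, 7.46 and 7.73 against 7.60, 7.79 and 7.85, with a difference of -0.22 (SE 0.15, interval -0.56 to 0.11). Tnfaip3, the ubiquitin-editing enzyme A20, ranged from 5.98 to 6.78, with control array 2 the highest, and differed by -0.17 (SE 0.20).

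The surface marker of activation and the G protein regulator in the list had differences near 0. Cd69, an early activation antigen that holds lymphocytes in tissue by internalising a sphingosine phosphate receptor, was at 6.29, 6.21 and 6.56 in the knockout and at 6.20, 6.54 and 6.48 in the control. The genotypes overlapped throughout, and the difference was -0.05 (SE 0.16, interval -0.41 to 0.30). Rgs1, which dampens chemokine receptor signals, was at 6.86, 6.91 and 6.43 against 6.72, 7.10 and 6.63, a difference of -0.08 (SE 0.18). As for Fos, the third array was the lowest of each genotype.

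Heat shock genes were highest in control array 3, in 5 of 5 genes, and 0 of 5 differed between genotypes past the threshold. Hspa1a, the stress-inducible HSP70, was at 4.85, 4.63 and 4.90 in the knockout and at 4.81, 4.91 and 5.56 in the control. Only control array 3 stood apart, and the difference was -0.30 (SE 0.20, interval -0.76 to 0.16). Dnajb1, the HSP40 co-chaperone of HSP70, was at 6.19, 5.99 and 6.64 against 6.27, 6.42 and 7.36, a difference of -0.41 (SE 0.28, interval -1.04 to 0.22). Hsph1, an HSP110 nucleotide exchange factor, was at 6.76, 6.46 and 6.70 against 6.56, 6.20 and 7.30. Its difference of -0.05 (SE 0.25) was 0.26 without control array 3, and that of Dnajb1 was then -0.07.

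Hsp90aa1 and Hspa8 were likewise highest in control array 3. Hsp90aa1, the inducible cytosolic HSP90, was at 9.35, 9.01 and 9.39 in the knockout and at 9.31, 9.11 and 9.79 in the control, and its -0.15 (SE 0.20) was 0.04 without control array 3. Hspa8, the constitutive HSC70, ranged from 10.6 to 11.1, with a difference of 0.06 (SE 0.15). Control array 3 was also the highest in 2 further probe sets of Hsp90aa1, at 9.65 and 9.30, and in 2 of Hspa8, at 11.1 in each. These Hspa8 probe sets differed by -0.07 and -0.04 between genotypes, the opposite sign to the first. The probe set annotated to Hspa1a and Hspa1b together did not share this order. It was at 6.00, 5.23 and 5.39 in the knockout and at 5.65, 5.31 and 5.48 in the control, with the first array highest in each genotype. Because both genes share nearly the same sequence, which of them either probe set measured is uncertain.

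The spread between arrays of one genotype was larger in this list than in most genes. The SD within genotypes, pooled over both, had a median of 0.29 log2 units over the 31 genes and of 0.20 over all 19938 genes. A value among the highest 5% of all genes was reached by 8 of 31 genes, which were Fos, Fosb, Jun, Junb, Nr4a1, Ier3, Dusp1 and Dnajb1. Of genes above the background level, 6.78% reached it. Fos had an SD of 0.71, Dusp1 of 0.70, Fosb of 0.69 and Jun of 0.63. Between the highest and the lowest knockout array this came to a 2.92-fold range for Fos, 3.29-fold for Jun and 3.32-fold for Dusp1. Set against genes within 0.5 log2 units of the same mean, their SDs stood at percentiles from 98.9 (Fosb) to 99.5 (Dusp1). Knockout array 3 lay under the background level of 4.13 for Fos (3.66) and Fosb (4.08), and control array 3 for Fos (4.02). Part of the spread of Fos and Fosb was thus measured in the background range. No test was made of the list's spread.

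**Figure D3:**
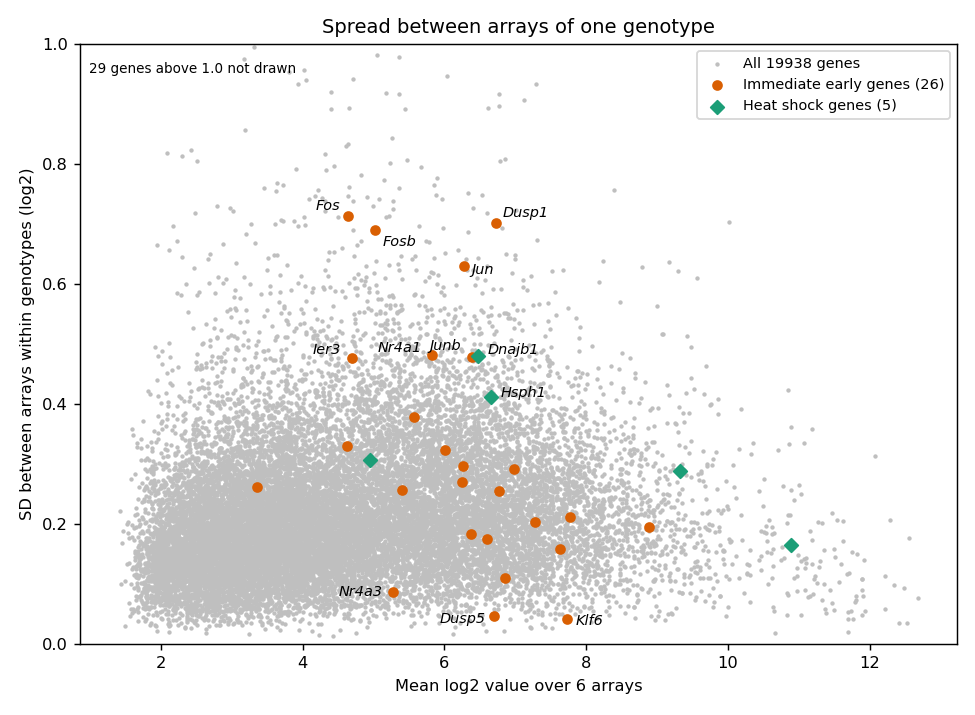
SD between arrays within genotypes against the mean log2 value over 6 arrays. Grey points are all 19938 genes (29 with an SD above 1 are not drawn), orange points 26 immediate early genes and green diamonds 5 heat shock genes. Fos, Fosb, Dusp1 and Jun lie near the upper edge, between 0.63 and 0.71, and Klf6 and Dusp5 near the lower edge.

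Other genes of the list were among the steadiest measured. Klf6 had an SD of 0.04 and Dusp5 of 0.05, at percentiles 0.6 and 0.8 of all genes, and Nr4a3 of 0.09, at percentile 6.5. Jund followed at 0.11. Within a family the range was wide. The SD of Dusp1 was 15.1 times that of Dusp5, and the SD of Jun 5.78 times that of Jund. Cd69, at 0.18, and Zfp36 and Btg2, at 0.20 and 0.19, lay near the median of all genes.

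Immediate early and heat shock genes did not peak on the same arrays. Of the 26 immediate early genes, 19 in knockout array 2 and 18 in control array 2 lay above their genotype's mean, with median deviations of 0.22 and 0.20. Over all genes these arrays had median deviations of 0.014 and -0.0018, and over genes above the background level of 0.012 and 0.035. Knockout array 3 held 8 of 26 above the mean, with a median deviation of -0.15, and was the lowest of the 6 arrays for 10 of 26. Across all genes it was the lowest for 15.6%, and across genes above the background level for 18.8%, with a median deviation there of -0.032. The 5 heat shock genes had median deviations of -0.18 and -0.27 in the arrays numbered 2 and of 0.11 and 0.47 in those numbered 3. Control array 3 was the highest of all 6 for each heat shock gene and the lowest of the control arrays for Fos, Fosb, Jun and Dusp1. Over all 26 immediate early genes it was close to control array 1, with median deviations of -0.037 and -0.035. There 11 and 9 of 26 lay above the mean, and control array 3 was the lowest of the 6 arrays for 1 of 26. These genes were picked out after their values were seen, and the pattern carries no test.

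**Figure D4:**
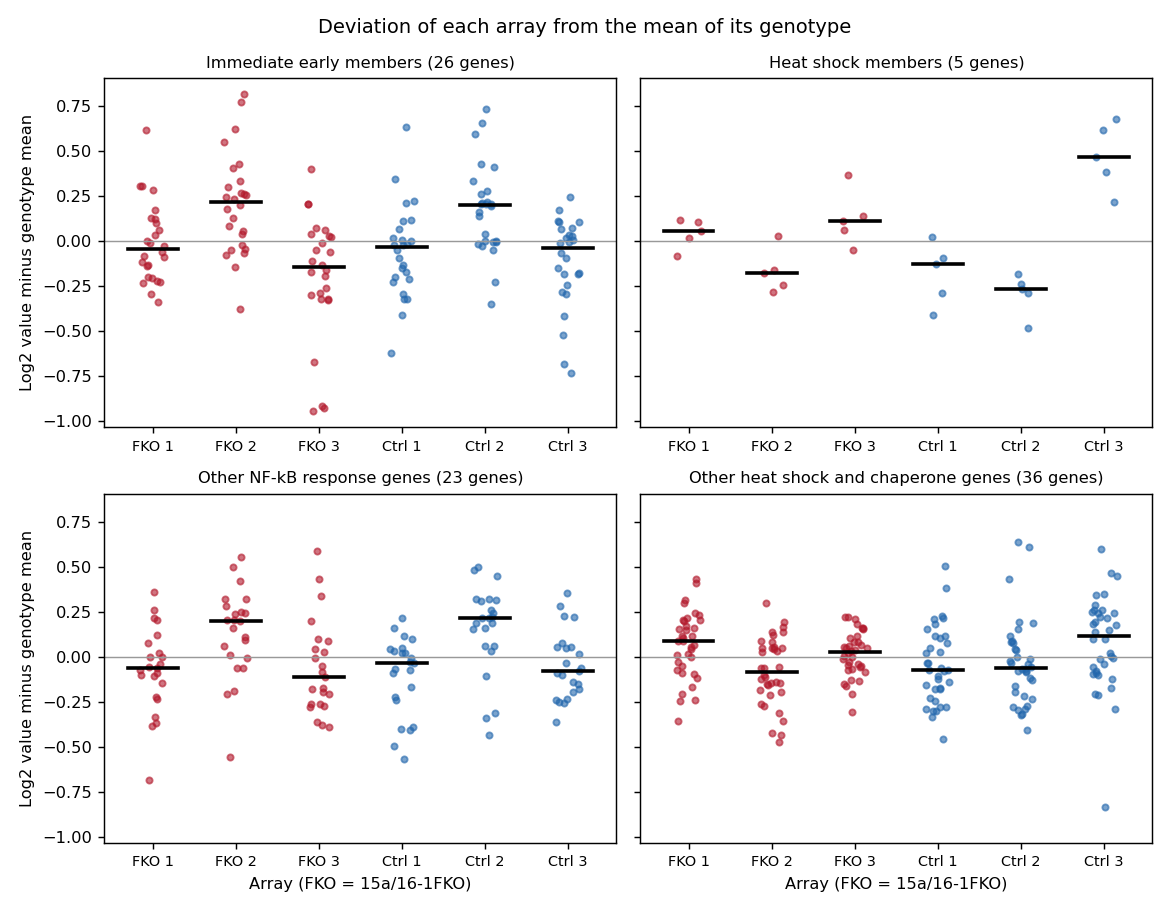
Log2 value of each gene minus the mean of its genotype, by array, for 4 sets of genes. Points are genes (red 15a/16-1FKO, blue Ctrl) and black bars medians. The second array of each genotype is high for immediate early and other NF-kB response genes, and control array 3 is high for both sets of heat shock genes.

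Genes of the same pathways outside the list shared these orders in part. Of 24 other genes of the NF-kB response, 23 were measured, and 17 of 23 in knockout array 2 and 19 of 23 in control array 2 lay above their genotype's mean, with median deviations of 0.20 and 0.21. Of 40 other chaperone and heat shock genes, 36 were measured, and control array 3 was the highest for 14 of 36 (38.9%), where it was so for 13.7% of all genes. Within the knockout these 36 genes were highest in array 1, with a median deviation of 0.087 and 25 of 36 above the mean, against 0.027 in array 3, where the 5 heat shock genes of the list were at 0.11. The 38 measured of 40 other immediate early genes had median deviations between -0.02 and 0.02 on all 6 arrays. Array 2 had the highest median in each genotype there too, with 22 and 19 of 38 (57.9% and 50%) above the mean. Of genes above the background level, 52.5% and 57.6% lay above the mean in these arrays, with median deviations of 0.012 and 0.035. The other immediate early genes thus stood near that level and did not share the order of the list beyond it.

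Between genotypes, 0 of 97 genes in these other lists were called by limma, and 6 had an unadjusted p under 0.05, all negative, where 3.47% of all genes did. Among other immediate early genes 13 differences were positive and 25 negative (median -0.08), and 6 of 38 (15.8%) did not overlap, 1 higher and 5 lower in the knockout, where 8.33% of all genes did not. Gadd45a, a growth arrest gene induced by DNA damage, was at 5.22, 4.77 and 4.95 in the knockout and at 5.56, 5.40 and 5.77 in the control. All knockout arrays lay below all control arrays, with a difference of -0.59 (SE 0.17, interval -0.97 to -0.22, unadjusted p = 0.0056 and adjusted p = 0.999 by limma). Klf9, a glucocorticoid-responsive factor, differed by -0.43 (SE 0.15) close to background, and Spry2, an inhibitor of growth factor signalling, by 0.16 (SE 0.13). Among other heat shock and chaperone genes 16 were positive and 20 negative (median -0.03), and Cacybp, an HSP90-interacting protein, alone did not overlap, at -0.45 (SE 0.20). Without control array 3 the difference of Cacybp was -0.23. Of 23 NF-kB response genes 9 were positive and 14 negative (median -0.03), and 0 were free of overlap.

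Most markers of T, B, myeloid and neutrophil cells lay under the background level. Summarised as the mean log2 value of the list, macrophage, monocyte and dendritic cell markers ranged from 4.44 to 4.61 in knockout and from 4.58 to 4.64 in control arrays, with 6 of 9 under the background level. The other 3 were Itgax, at a mean of 9.17, Cd68, at 5.96, and Lyz2, at 5.06. T cell markers ranged from 4.88 to 5.06 and from 4.92 to 5.003, with 6 of 10 under that level, among them Cd4, Cd8a and Cd8b1. The transcripts of the CD3 chains lay above it on every array, at means of 7.33 for Cd3d, 6.34 for Cd3e and 6.84 for Cd3g, although the gate took CD3- cells. The fourth, the costimulatory receptor Cd28, was at a mean of 8.21 and 0.43 higher in the knockout, without overlap (SE 0.14, unadjusted p = 0.0117 by limma). B cell markers were highest in control array 3, at 4.20, against 3.66 to 4.02 on the other 5, with 4 of 7 under the background level. Neutrophil markers were lowest in knockout array 2, at 3.75, and reached 4.26 in knockout array 1, with 5 of 7 under that level, Ly6g among them. The other 2 were the calcium-binding proteins S100a8 and S100a9, at means of 7.46 and 6.61. S100a8 was 0.77 higher in the knockout, with overlap (SE 0.32, unadjusted p = 0.0407 by limma). The myeloid marker H2-Ab1 (-0.58, with overlap, unadjusted p = 0.0159 by limma) and the platelet marker Gp5 (-0.36, without overlap, unadjusted p = 0.0228) were lower. Both had means under the background level, and 3.47% of all genes had an unadjusted p under 0.05. Erythroid markers, 3 measured of 6, ranged from 4.06 to 4.41 over the 6 arrays, and platelet markers, 5 of 6, from 3.56 to 3.76. Xist was lowest in control array 2, at 3.89, and within the knockout in array 1, at 7.56. Control array 2, where 18 of 26 immediate early genes lay above their mean, was the control array with the least Xist. Knockout array 2, with 19 of 26, lay between the other knockout arrays. With sex-linked transcripts as a covariate the median SD of the list was 0.25, against 0.29 without (0.19 against 0.20 over all genes). Among members in the highest 5% by SD, the SE of Nr4a1 was 0.15, against 0.28. It also fell for Fosb (0.39 to 0.31), Junb (0.28 to 0.21) and Ier3 (0.28 to 0.24). It rose slightly for Fos (0.40 to 0.41), Jun (0.355 to 0.363), Dusp1 (0.391 to 0.394) and Dnajb1 (0.28 to 0.30). Over the 6 arrays Xist and Eif2s3y had their highest and lowest values in control arrays 1 and 2. Nr4a1 had its lowest and highest values, 5.31 and 6.53, in the same 2 arrays. Neither the part of other cells nor that of sex in these values was tested.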

How the data were processed

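RNA of 6 samples, 3 per genotype, was hybridised to Affymetrix mouse gene arrays. The deposited values are log2 expression values per probe set. Per the submitters' processing notes they were made with RMA and Partek 6.6, without the part of each step. RMA compresses differences of dim probe sets. The build behind the probe sets is not given in the sources, no scanner files or detection calls were used, and RefSeq sequences come from the GRCm38.p6 tables. Of 35556 probe sets, 21789 had 1 symbol in the platform annotation, 1621 had several and 12146 had none.

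Genotypes were compared by a two-sided moderated linear model (limma 3.58.1, R 4.3.3, no filter on dim probe sets), with the genotype as the only term and Benjamini-Hochberg adjustment over 19938 genes at a threshold of 0.05. The script was tested on simulated data. The members and lists were chosen with earlier results of these data known. All list members are named, and of each other pathway list up to 2 genes per direction with the largest difference among those without overlap and above the background level. Alternatives were 2 normalizations, 2 filters, the replicate number as a block, a sex covariate, another prior, array weights, other probe sets, and each array left out. Leaving out both arrays numbered 3 was added after seeing the data.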

Additional observations from a re-analysis of the deposited data

How the results depend on the processing

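No list member passed the limma threshold under any of 18 alternatives, with a smallest adjusted p of 0.991, and the 97 other pathway genes gave 0 calls in each. An unadjusted p under 0.05 was reached by 0 to 3 members and 2 to 8 other genes, where 3.47% of all genes reached it in the main fit. Of 556 differences of list members recomputed, 521 kept their sign and 35 turned it, in 17 genes, none of them called. Because these differences are small against the spread between arrays, their signs are not settled.

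Leaving out 1 array in turn moved the count of called genes from 4 to between 2 and 3, and the count of list members without overlap from 1 to between 1 and 7, Nr4a3 being among them each time. Fewer arrays leave more genes without overlap by construction: over all genes the share was between 16.3% and 19.8% in these fits, against 8.33% with all arrays, and over the list between 3.23% and 22.6%. Over the same fits the difference ranged from -0.46 to 0.35 for Fos, -0.18 to 0.26 for Fosl2, -0.71 to 0.15 for Jun, -0.029 to 0.50 for Junb, -0.054 to 0.27 for Egr2, -0.052 to 0.29 for Klf4, -0.53 to 0.077 for Nr4a1, -0.12 to 0.069 for Ier5, -0.0080 to 0.052 for Dusp5, -0.086 to 0.20 for Zfp36 and -0.15 to 0.052 for Btg2. It ranged from -0.32 to 0.046 for Tnfaip3, -0.16 to 0.020 for Cd69, -0.17 to 0.070 for Rgs1, -0.29 to 0.26 for Hsph1, -0.063 to 0.17 for Hspa8 and -0.30 to 0.040 for Hsp90aa1. The other 14 genes kept their sign, 12 of them moving by over 1.5 times (all but Nr4a3 and Nfkbia). Without both arrays numbered 3, Fos differed by 0.0072, Jun by 0.075, Ier5 by 0.10 and Hsph1 by 0.23, 8 members (25.8%) did not overlap, where 30.7% of all genes did not, and limma called 0 genes (713 at an unadjusted p under 0.05). A second quantile normalization gave -0.019 for Dusp5, and the dimmest probe set of each gene gave -0.074 for Hspa8. Centring on array medians left 2 members without overlap, Jund and Nr4a3 (7.97% of all genes). With sex-linked transcripts as a covariate limma called 2 genes, and with all 35556 probe sets tested 0 (1214 at an unadjusted p under 0.05). The cause of these changes was not tested.

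The labels do not say that equal replicate numbers pair the arrays, and over all genes the deviations of same-numbered arrays correlated by 0.05, 0.15 and 0.14, each array best with its own number. Over the 31 list genes they correlated by 0.09, 0.53 and 0.58, and knockout array 1 correlated best with control array 2 (0.21). In the fit with a replicate block, the median SD of the list was 0.19, against 0.29 without it (0.17 against 0.20 over all genes). The block gave 3 called genes in all, and 0 list members passed. An unadjusted p under 0.05 by limma was reached by 3 of 31 members, Dusp1, Dnajb1 and Fosb, and by 854 of 19938 genes. No detection calls were used, which limits what can be said of dim genes such as Atf3.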
